A study of Mus musculus with 9 samples.

Results

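The genes described here are those of the mitochondrial ribosomal proteins, taken as every gene symbol of the count table that reads Mrpl or Mrps followed by a number. The rule gave 76 of 23329 gene symbols, 47 Mrpl genes named for the large subunit and 29 Mrps genes named for the small one. The table holds polyadenylated RNA of pancreatic islets of male mice in 9 libraries. The 5 mutant libraries carry the genotype label Pdx1A4, which the labels do not explain further, and the 4 control libraries are Pdx1+/-, so the controls themselves lack a working copy of Pdx1, the master transcription factor of beta cells. Age is not among the labels, and neither is whether islets of several animals were pooled or whether each library came from its own animal, so the spread that p-values rest on may be technical. RNA was taken up with a DirectZol MicroPrep kit and made into libraries with a NEBNext Ultra II low-input kit, per the labels.

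The mitochondrial ribosome translates the few messages encoded by mitochondrial DNA, all of them for core subunits of the respiratory chain and ATP synthase. Its RNAs come from the mitochondrial genome, while every one of its proteins is encoded in the nucleus, made in the cytosol and imported. Part of the proteins have homologs in bacterial ribosomes and the rest arose in the mitochondrial lineage. In beta cells, ATP made by the respiratory chain couples glucose metabolism to insulin release.

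Not every symbol matches the place of its protein in the ribosome. Of 82 proteins in the structural nomenclature of the mammalian mitoribosome, 52 large and 30 small, 75 stand under Mrpl and Mrps symbols here. Mrps30 (structural name mL65) and Mrps18a (mL66) sit in the large subunit, and Mrps36 is a component of the 2-oxoglutarate dehydrogenase complex rather than of the ribosome. Subunits below follow the symbols unless the structural assignment is named.

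In the gene annotation of the mm10 build (GENCODE M21), the 76 genes lay on 17 chromosomes. Transcript length, here and below, is the median over a gene's annotated coding transcripts. It ranged from 440 to 6073 bases, with a median of 1221 over the genes. For 16 of the 76 genes, the start of another protein-coding gene lay within 500 bases in the opposite direction. For 16, more than 10% of exon bases were shared with another annotated gene, and with the strand setting of the counting unknown here, the reads of such partners cannot be separated. The 5 annotated pseudogenes named after members, among them Mrpl48-ps and 3 of Mrps36, are no rows of the count table, and reads from them could be counted under their parents.

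Promoter windows of RefSeq (build GRCm38.p6, 250 bases before to 50 bases after a gene's start) were found for 67 of the 76 genes. They were searched on both strands for 3 motifs named after factors known for nuclear genes of mitochondrial proteins, GCGCA followed by any base and GCGC for NRF1, CCGGAAG for the ETS family to which GABP belongs, and AAGATGGCG for YY1. No match of one motif overlapped a match of another. At least 1 motif was present for 39 of 67 members (58.2%), against 15.1% of all 27025 genes with a window. The NRF1 letters were present for 12 members (17.9%), against 5.19% of all genes, the ETS letters for 24 (35.8%), against 9.93%, and the YY1 letters for 8 (11.9%), against 1.64%. The member windows had a median GC content of 58.3%, against 52.7% over all windows. A match is a run of letters and not a measured binding site.

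Shown next are the 120 bases before the start for 5 members that recur in the results, with motif matches in capitals: 4 genes that rose in the mutants, and Mrpl27, which did not pass the test and carries the same ETS letters. The windows are at chr11:120484517-120484636 (plus strand) for Mrpl12, chr19:45006443-45006562 (minus) for Mrpl43, chr14:54426789-54426908 (plus) for Mrpl52, chr17:46110884-46111003 (plus) for Mrps18a and chr11:94653671-94653790 (plus) for Mrpl27, each printed 5′ to 3′ on the strand of its gene.
Mrpl12: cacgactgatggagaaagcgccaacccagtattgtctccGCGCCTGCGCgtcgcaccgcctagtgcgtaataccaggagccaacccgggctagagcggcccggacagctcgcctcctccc
Mrpl43: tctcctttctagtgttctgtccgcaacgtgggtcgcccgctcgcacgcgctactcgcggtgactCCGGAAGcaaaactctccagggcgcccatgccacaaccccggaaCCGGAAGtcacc
Mrpl52: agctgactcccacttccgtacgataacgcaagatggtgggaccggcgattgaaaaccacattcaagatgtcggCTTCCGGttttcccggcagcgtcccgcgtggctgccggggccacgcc
Mrps18a: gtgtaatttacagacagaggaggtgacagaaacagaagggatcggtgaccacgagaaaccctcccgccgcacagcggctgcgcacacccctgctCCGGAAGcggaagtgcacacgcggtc
Mrpl27: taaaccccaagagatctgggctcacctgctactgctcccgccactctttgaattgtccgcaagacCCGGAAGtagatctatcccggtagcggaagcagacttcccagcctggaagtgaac
Mrpl12 shows the NRF1 letters and the other 4 the ETS letters, in 2 copies in Mrpl43. In Mrpl12 and Mrpl52 the match is on the opposite strand, so the capitals read as the reverse complement of the motif.

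Library totals were 7186462 to 9163253 counts in the mutants and 6092010 to 7375376 in the controls. Pdx1 itself, read from its gene-level counts, had 15.6, 4.18, 7.13, 17.8 and 19.9 CPM in mutants 1 to 5, against 36.0, 32.0, 23.8 and 26.2 CPM in controls 1 to 4 (log2 fold change -1.18, SE 0.40, adjusted p = 0.0461 by edgeR's quasi-likelihood test). Without control 2 the value was -1.24 and the call was lost (adjusted p = 0.0700). CPM here and below is the count per 1000000 of the library size after TMM scaling. Cell type markers differed by genotype. The 7 islet hormone genes took 4.25% ± 3.54 of counts in mutants and 19.1% ± 1.97 in controls (SD, n = 5 and 4), and in mutants they ran as low as 0.0691% in mutant 2 and 1.21% in mutant 3. The 13 acinar markers, 12 of which rose, took 10.3% ± 3.15 in mutants (6.76% to 13.4%) and 1.52% ± 0.362 in controls (1.26% to 2.06%). By mean log2 CPM, the beta, alpha and delta cell lists were lower in every mutant than in every control and the ductal list was higher, with 3 of its 5 markers that rose and 1 that fell, while the endothelial, macrophage and stellate lists overlapped between groups. The alpha list was apart narrowly, at 6.85 in mutant 1 and 6.91 in control 4. Gene by gene, 0 of 7 hormone genes passed downward, although all 7 were apart. Of tested markers, 1 of 8 beta (Pdx1), 1 of 3 alpha and 2 of 3 delta passed downward, against 11.8% of all genes. In bulk RNA of this kind, more cells of a type and more RNA per cell cannot be told apart.

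Control 2 stood apart from the other controls for these genes, and results are therefore given with and without it. It was the highest control for 47 of the 76 members and the highest of all 9 libraries for 19, and its median log2 CPM difference from the mean of controls 1, 3 and 4 was 0.41 over the members, against -0.27, 0.10 and -0.29 for controls 1, 3 and 4 taken the same way. It exceeded the mean of the other controls over 2-fold for 6 of the 76 members, near the share of all genes with an annotated length (8.31%). Its ratio to them was highest for Mrpl42, at 5.13-fold, and lowest for Mrps6, at 0.617-fold. By mean log2 CPM, its median ratio was 1.33 over the members, 1.52 over nuclear-encoded respiratory chain genes and 1.06 over cytosolic ribosomal protein genes. Over all genes tested with an annotated length, control 2 was also raised for short transcripts, with a median of 0.36 for lengths over 500 and up to 1000 bases and -0.11 for lengths over 2000 and up to 4000 bases. Members were above the other controls in both of those length classes, at medians of 0.44 and 0.43. Within groups, the median coefficient of variation of a member was 13.3% in mutants and 22.0% in controls, and 14.0% in controls without control 2.

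**Figure D1:**
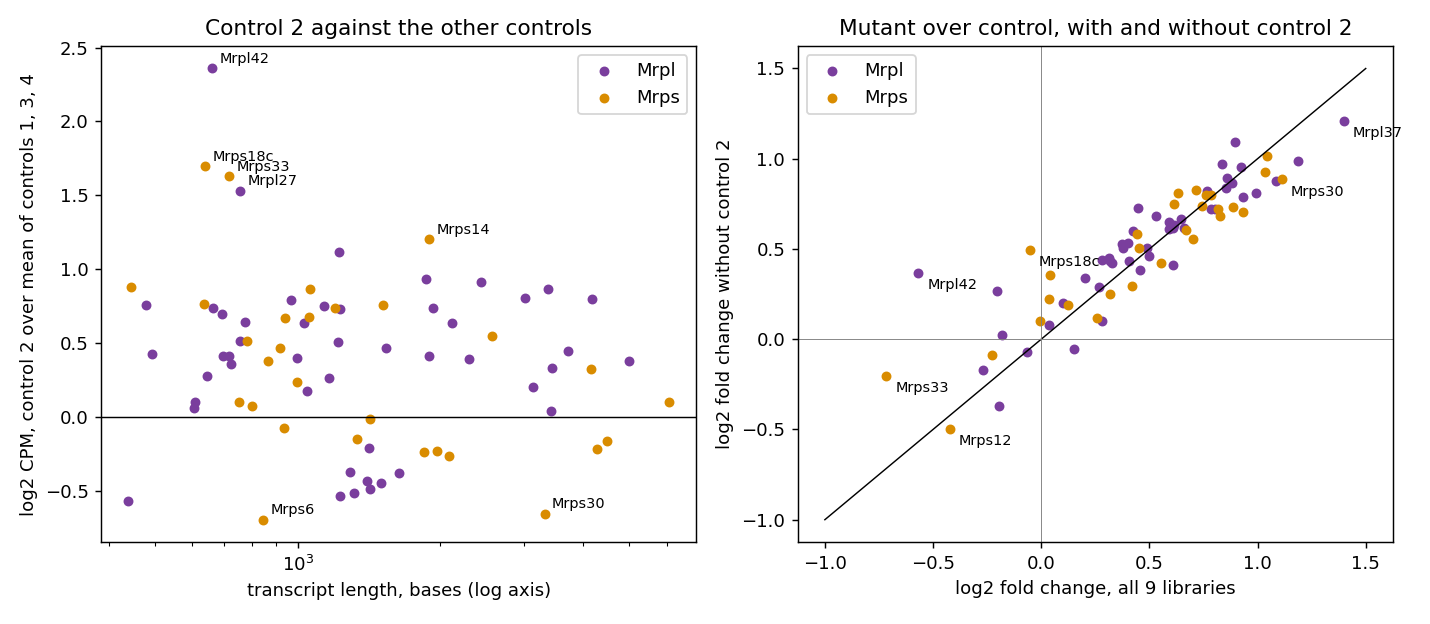
Left, log2 ratio of CPM in control 2 to the mean CPM of controls 1, 3 and 4 for each of the 76 genes against transcript length in bases on a log axis; right, log2 fold change of mutant over control with all 9 libraries (x) and without control 2 (y), with the line of equality. Mrpl42, Mrps18c, Mrps33 and Mrpl27 lie highest at left, and at right these genes lie above the line of equality.

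In the mutants, 37 of the 76 mitochondrial ribosomal protein genes rose and 1, Mrps12, fell, while 38 did not pass the test. The background was 20.6% of 12402 genes higher and 11.8% lower, against 48.7% of members higher. All 76 members passed the filter on low counts, with 32 to 2288 counts per library and a median of 343. The median log2 fold change over the members was 0.52, against 0.04 over all genes tested, and 65 members had a positive value. Those that rose spanned 0.42 to 1.40, with adjusted p of 0.00185 to 0.0437. In 31 members the lowest mutant exceeded the highest control, and in 1 the highest mutant lay under the lowest control, where 18.5% of all genes were apart upward and 14.7% downward, and the other 44 overlapped. In 37 of those 44, control 2 was the highest control.

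These counts depended on scaling and on single libraries. RLE scaling gave 32 members higher and 1 lower, against 17.4% and 16.2% of all genes. DESeq2 gave 35 and 1, against 20.3% and 20.6%, and limma-voom 55 and 1, against 24.3% and 18.5%. With library totals in place of TMM, 11 members were higher, all of them among the 37, and 3 were lower (Mrps12, Mrps33 and Mrpl41), where 8.81% of all genes were higher and 18.9% lower. The median over members was then 0.18, and the median of all genes -0.29. The members lay 0.47 above all genes under library totals and 0.48 above under TMM. A change of scaling moves all genes by nearly the same amount, so this difference cannot test whether the rise depends on scaling. Without control 2, 39 members rose, 31 of them among the 37, and 1 fell, against a background of 15.8% higher and 10.3% lower, and 50 were apart upward and 1 downward (22.9% and 16.7% of all genes). Without mutants 2 and 3, which had the lowest hormone shares, 15 rose and 0 fell by edgeR, with 1 lower at an unadjusted p under 0.05 (background 10.8% and 9.78%). After adding the acinar score as a covariate, edgeR called 0 members at an adjusted p under 0.05, with 0 higher and 1 lower at an unadjusted p under 0.05, and it called 0 of all genes. The score separated the groups completely, so genotype and acinar content cannot be told apart in these libraries. With the endocrine secretory score as a covariate, 4 members were higher (Mrpl37, Mrpl38, Mrps15 and Mrps7). That is 5.26% of members, near the 3.77% of all genes. Of the 18 genes in this score, 16 were apart downward in the mutants, against 14.7% of all genes. This fit therefore can hardly separate genotype from endocrine content.

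**Figure D2:**
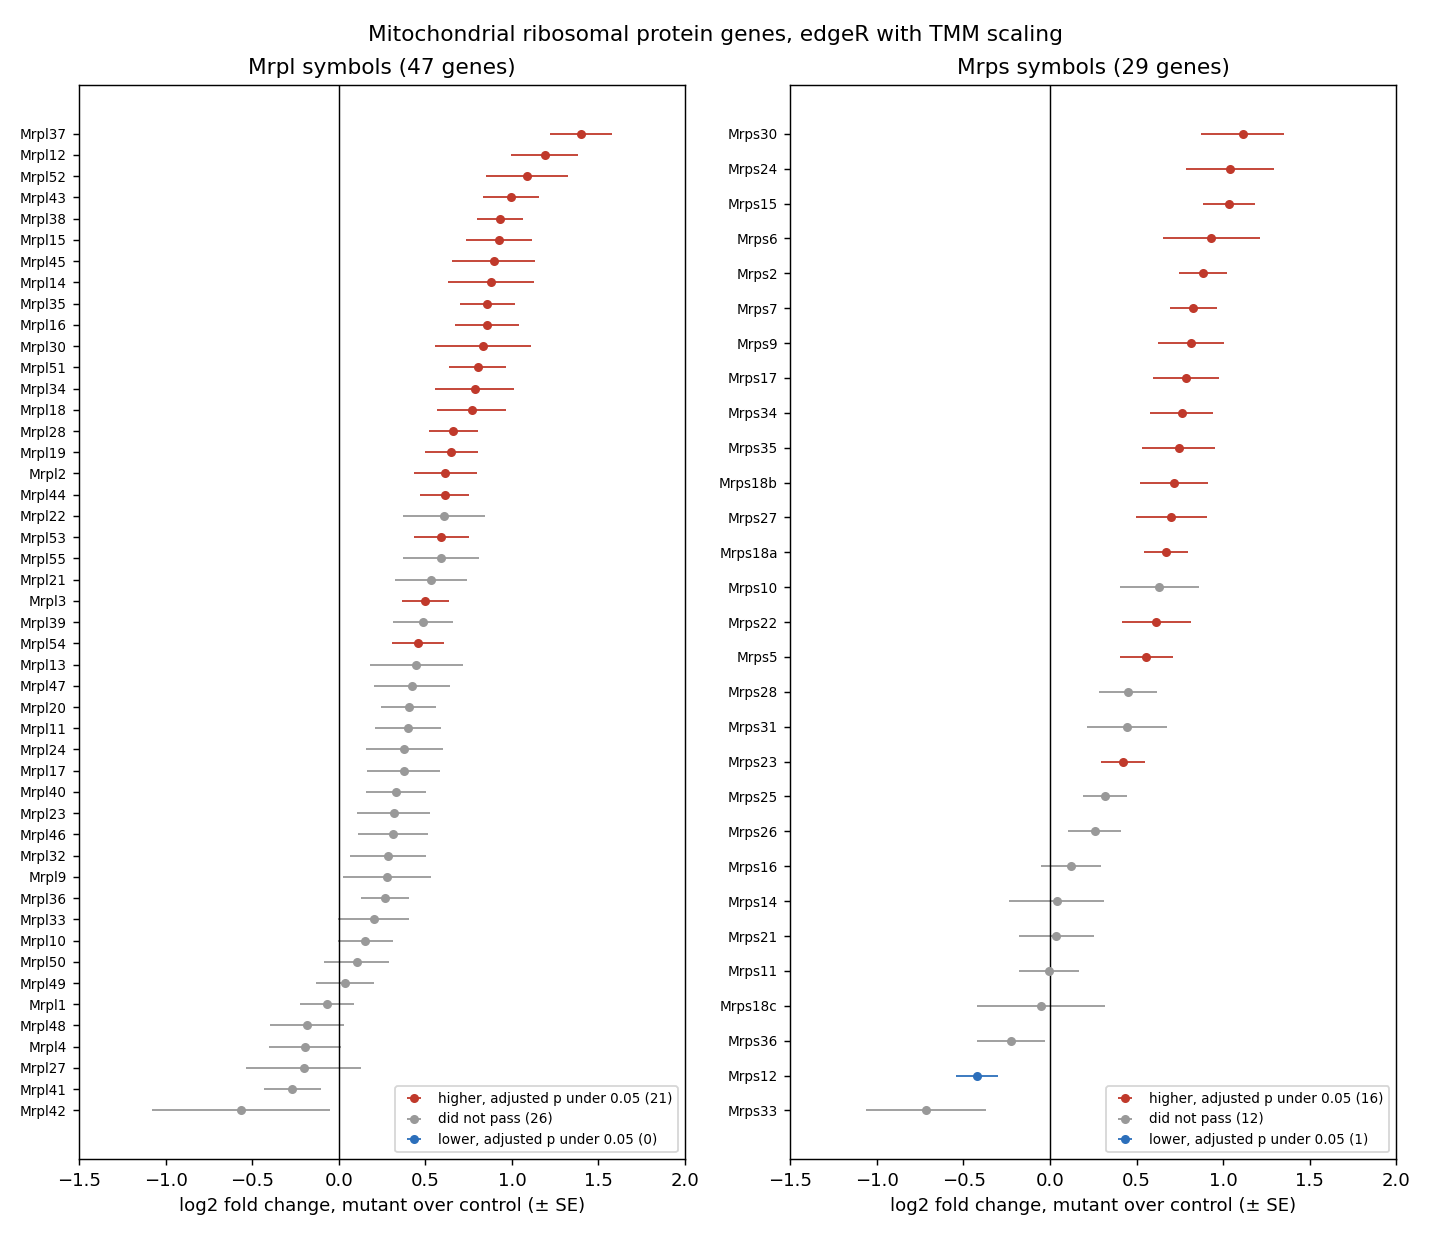
Log2 fold change of mutant over control with its standard error for each Mrpl gene (left) and Mrps gene (right), coloured by the edgeR call at an adjusted p under 0.05. Most points lie right of 0, with Mrpl37 at 1.40 and Mrps30 at 1.11 on top and Mrps12 as the lower call.

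**Figure D3:**
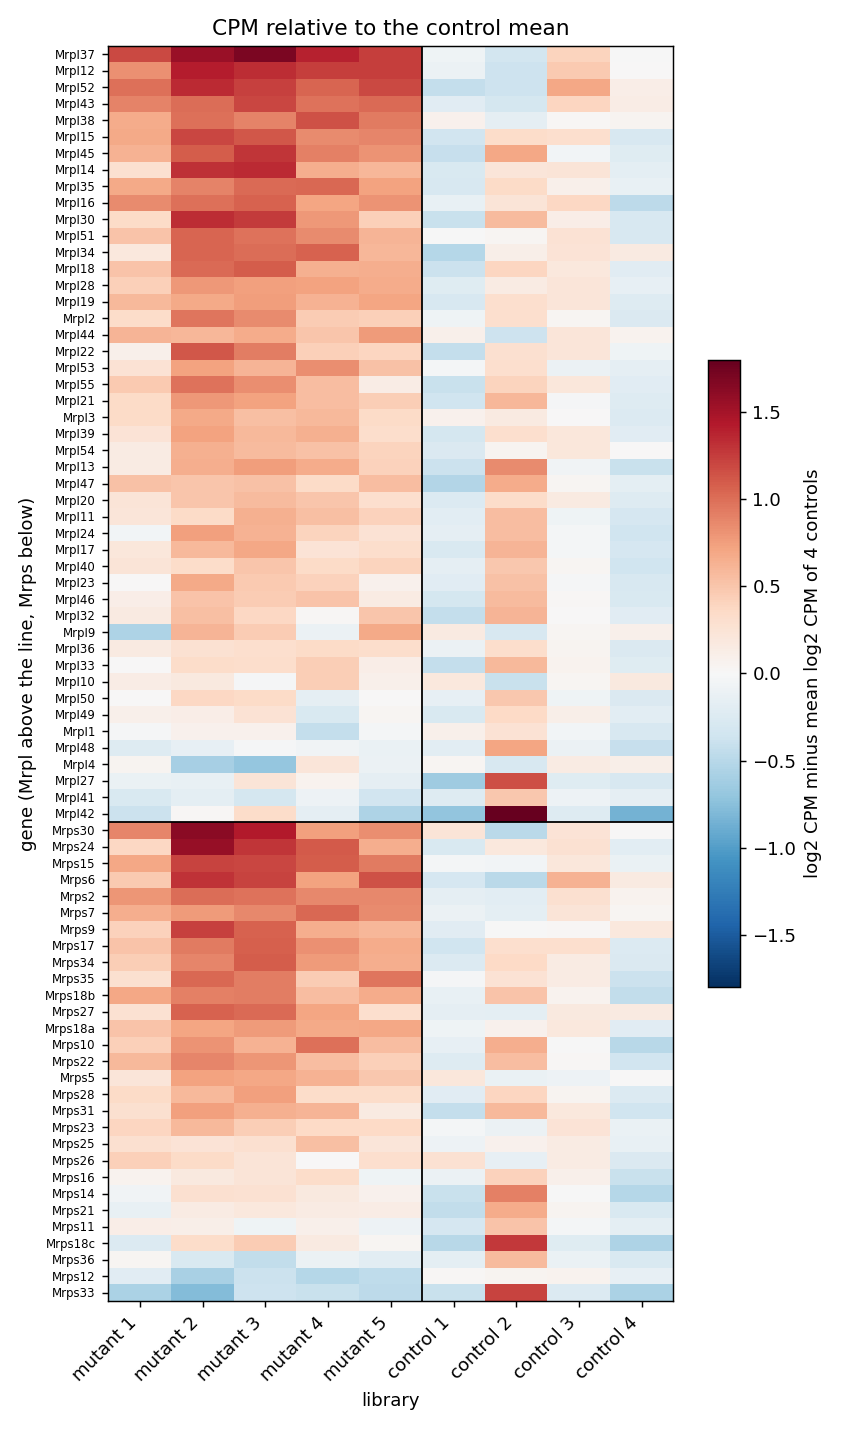
Log2 CPM of each of the 76 genes in each library minus the mean log2 CPM of the 4 controls, Mrpl genes above the line and Mrps genes below, each ordered by fold change. Mutants 2 and 3 are red for most genes, the darkest cell is that of Mrpl42 in control 2, and control 2 is red for many of the lower genes of both blocks.

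Mutants 2 and 3 carried the highest levels in most cases. Mutant 2 was the highest mutant for 31 members and mutant 3 for 25, and mutant 1 was the lowest mutant for 49. By share of counts, these libraries were also the extremes among mutants, with acinar shares of 13.4% and 12.5% in mutants 2 and 3 and 6.76% in mutant 1, and hormone shares of 0.0691%, 1.21% and 7.99% in the same order. By mean log2 CPM, mutant 4 had the highest acinar value (10.38) and mutant 5 the lowest (9.53). The part of cell makeup in the order of the mutants was not tested.

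Among Mrpl genes, 21 of 47 (44.7%) rose, 0 fell and the median log2 fold change was 0.49. At an unadjusted p under 0.05, the count of all members lower was also 1, Mrps12, so no Mrpl gene passed downward there, and DESeq2 called 20 Mrpl genes higher and 0 lower. Mrpl37, a large subunit protein with no bacterial homolog, had the largest change of all members. It lies at chr4:107055874-107066868 and had 111, 143, 157, 127 and 115 CPM in mutants 1 to 5, against 46.3, 38.9, 64.4 and 48.5 CPM in controls 1 to 4. The lowest mutant lay well above the highest control (log2 fold change 1.40, SE 0.18, adjusted p = 0.00185), and Mrpl37 was also called under library totals (1.03, adjusted p = 0.00978).

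Mrpl12 encodes the protein of the flexible stalk that engages translation factors, and it is also described as a partner of the mitochondrial RNA polymerase. The gene, at chr11:120484613-120489065, had 66.6, 99.6, 93.9, 89.2 and 88.7 CPM in mutants, against 34.7, 29.0, 52.2 and 37.7 CPM in controls. Mutant 1 was the lowest mutant and still above control 3, the highest control (log2 fold change 1.19, SE 0.20, adjusted p = 0.00342). A share of 15.2% of its exon bases overlaps Gm16755 on the opposite strand. Its promoter carries the NRF1 letters shown above.

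Mrpl52 (chr14:54426909-54429756) had 27.2, 34.5, 32.0, 28.1 and 31.0 CPM in mutants, against 10.1, 10.5, 22.0 and 14.8 CPM in controls. Control 3 was the highest control and lay below every mutant (log2 fold change 1.09, SE 0.23, adjusted p = 0.00905). Mrpl43 (chr19:45004829-45006442) had 40.1, 43.4, 49.5, 42.6 and 43.9 CPM in mutants, against 18.7, 17.4, 28.1 and 23.7 CPM in controls. The mutants were close to one another, and the groups did not overlap (log2 fold change 0.99, SE 0.16, adjusted p = 0.00346). Mrpl43 shares 27.5% of its exon bases with Twnk, the mitochondrial DNA helicase gene on the opposite strand. Mrpl52 and Mrpl43 both encode proteins specific to mitochondrial ribosomes.

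Mrpl38, a protein of the central protuberance, the knob of the large subunit that faces the small one, had 67.8, 85.1, 79.2, 94.7 and 82.0 CPM in mutants, against 45.2, 38.3, 43.6 and 44.3 CPM in controls. The controls lay within a narrow range and below every mutant (chr11:116131817-116138868, log2 fold change 0.93, SE 0.13, adjusted p = 0.00242). Mrpl15, a homolog of bacterial L15, had 71.7, 102, 96.5, 80.2 and 82.1 CPM in mutants, against 35.1, 56.0, 54.6 and 36.5 CPM in controls, again apart (chr1:4773206-4785739, log2 fold change 0.93, SE 0.19, adjusted p = 0.00775). These 6 Mrpl genes kept their call in each of the 9 fits that left out 1 library.

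By place in the large subunit, members were put in short lists after the values were seen. The lists do not hold every protein of a place, so their shares depend on the choice. Of 5 listed stalk proteins, 3 rose (Mrpl12, Mrpl53 and Mrpl54). Mrpl10 and Mrpl11, which form the stalk's base, had log2 fold changes of 0.15 and 0.40 and did not pass. Near the peptidyl transferase centre, Mrpl2, Mrpl3 and Mrpl16 rose by 0.61, 0.50 and 0.86 on the log2 scale, and Mrpl27, whose bacterial counterpart reaches into that centre, had -0.20 and did not pass. At the exit tunnel, 2 of 6 rose, Mrpl44 by 0.61 and Mrpl45 by 0.90, of which Mrpl45 is the protein that ties the tunnel exit to the inner membrane. Of 4 proteins listed for the central protuberance, 1 rose, Mrpl38. Without control 2, 3 of 5 stalk, 3 of 4 peptidyl transferase, 3 of 6 exit tunnel and 2 of 4 central protuberance proteins rose. Mrpl11 then passed (log2 fold change 0.53, adjusted p = 0.0225) and Mrpl54 did not (adjusted p = 0.0888). The background was 20.6% of all genes higher with all libraries and 15.8% without control 2. All exon bases of Mrpl53 are shared with another annotated gene, so its counts cannot be assigned with certainty.

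Among Mrps genes, 16 of 29 (55.2%) rose, 1 fell and the median log2 fold change was 0.61. With the structural assignment, 14 of 26 small subunit genes rose and 23 of 49 large subunit genes. Mrps30, structurally a large subunit protein, led the Mrps symbols. It had 67.7, 113, 99.1, 61.3 and 65.4 CPM in mutants, against 43.1, 26.2, 43.8 and 37.0 CPM in controls (chr13:118378381-118387252). Mutants 2 and 3 stood above the other mutants, which still lay above all controls (log2 fold change 1.11, SE 0.24, adjusted p = 0.00869), and 18.1% of its exon bases are shared with B430218F22Rik on the opposite strand.

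Mrps24, the homolog of bacterial S3 at the entrance for messenger RNA, had 45.4, 104, 85.9, 75.5 and 55.1 CPM in mutants, against 29.0, 40.2, 42.3 and 30.7 CPM in controls (chr11:5703983-5715680). Mutant 1 came close to control 3 without reaching it (log2 fold change 1.04, SE 0.25, adjusted p = 0.0139), and without mutants 2 and 3 the adjusted p was 0.0524. Mrps15, a homolog of bacterial S15, which binds ribosomal RNA early in assembly, had 47.2, 68.1, 66.9, 62.2 and 56.1 CPM in mutants, against 28.6, 28.2, 33.7 and 26.8 CPM in controls (chr4:126046925-126055532). Its controls, control 2 included, lay within a narrow range below every mutant (log2 fold change 1.03, SE 0.15, adjusted p = 0.00242).

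Mrps2 and Mrps7, homologs of bacterial S2 and S7, changed less and with small spread. Mrps2 (chr2:28468066-28471178) had 46.7, 54.2, 53.1, 49.2 and 49.2 CPM in mutants, against 24.2, 23.7, 33.1 and 28.2 CPM in controls (log2 fold change 0.89, SE 0.14, adjusted p = 0.00293). Mrps7 (chr11:115603925-115608036) had 67.3, 72.3, 77.5, 87.0 and 77.1 CPM in mutants, against 39.8, 37.9, 50.2 and 43.8 CPM in controls (log2 fold change 0.83, SE 0.14, adjusted p = 0.00343). Neither gene's groups overlapped, and 12.5% of the exon bases of Mrps7 are shared with Gga3 and Mif4gd on the opposite strand.

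Mrps6, the homolog of bacterial S6, had 9.08, 16.2, 15.2, 10.8 and 14.6 CPM in mutants, against 5.33, 4.68, 10.1 and 7.38 CPM in controls (chr16:92058270-92112227). Mutant 1 lay below control 3, so the groups overlapped (log2 fold change 0.93, SE 0.28, adjusted p = 0.0304). Mrps6 shares 36.1% of its exon bases with other genes on its own strand, Slc5a3, the myo-inositol transporter gene, among them, and its call was lost without control 2 (adjusted p = 0.0873).

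Mrps12, the homolog of bacterial S12 at the decoding centre, where codons are matched to transfer RNAs, was the member that fell. It had 55.7, 42.6, 49.0, 44.9 and 46.7 CPM in mutants, against 64.9, 66.3, 66.9 and 57.9 CPM in controls (chr7:28739641-28741820). Every mutant lay below every control, with mutant 1 close to control 4 (log2 fold change -0.42, SE 0.12, adjusted p = 0.0280). Under library totals the change was -0.74 (adjusted p = 0.0198). Its call was lost without mutant 5, control 1 or control 3, at an adjusted p of up to 0.0680.

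**Figure D4:**
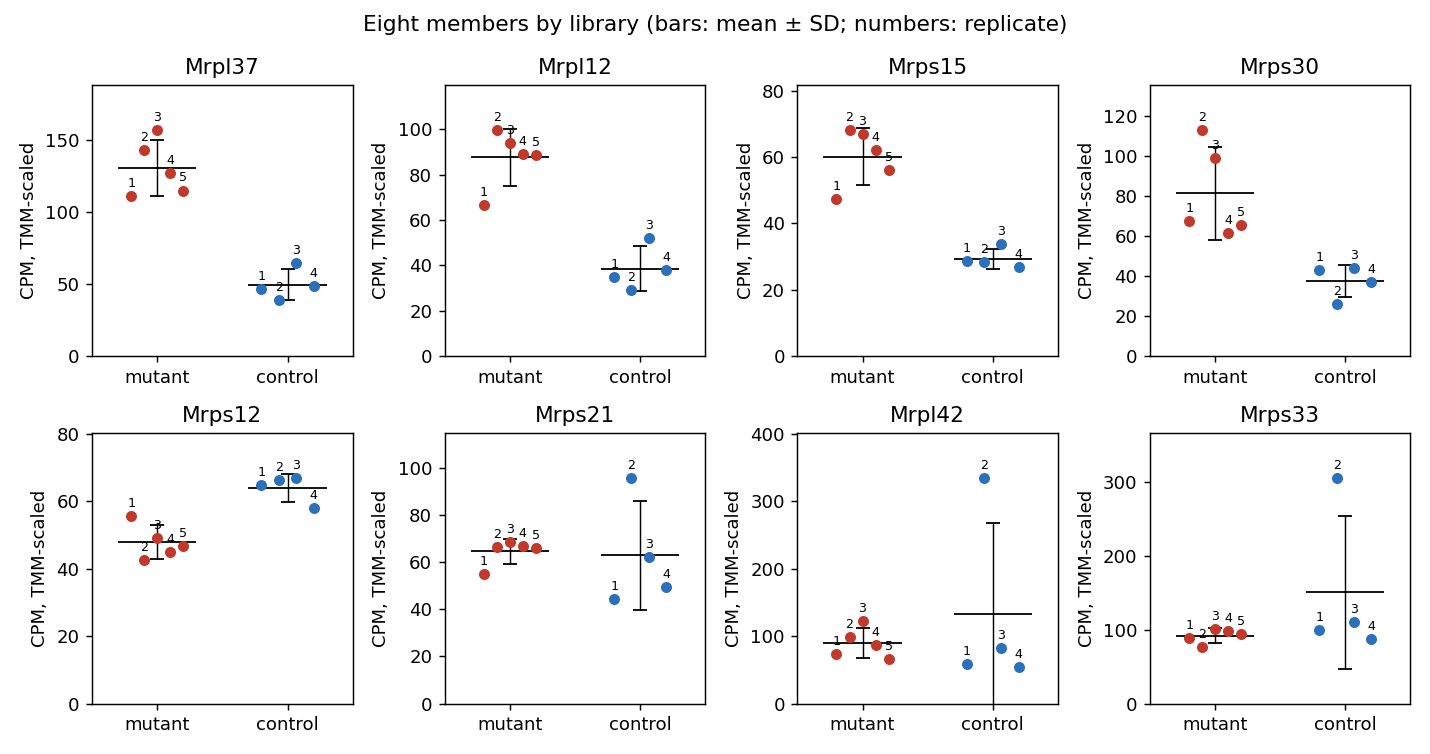
CPM of 8 genes in each library (points, numbered by replicate), with the mean and SD of each group. Mrpl37, Mrpl12, Mrps15 and Mrps30 show all mutants above all controls, Mrps12 the reverse, and in Mrps21, Mrpl42 and Mrps33 control 2 lies above every other library.

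By place in the small subunit, members were again put in incomplete lists after the values were seen. Of 5 listed head proteins, 3 rose (Mrps7, Mrps9 and Mrps24), while Mrps10 had a log2 fold change of 0.63 and Mrps14 of 0.04. Of 5 proteins listed for the platform, Mrps15 and Mrps6 rose, and Mrps11, Mrps18c and Mrps21 lay between -0.05 and 0.04. Without control 2, Mrps11, Mrps18c and Mrps21 had 0.10, 0.50 and 0.22 and did not pass, and Mrps6 lost its call (adjusted p = 0.0873). The counts that rose were then 4 of 5 head proteins, with Mrps10 added, and 1 of 5 platform proteins. The background was 20.6% of all genes higher with all libraries and 15.8% without control 2. Mrps14 had 98.4, 125, 124, 116 and 108 CPM in mutants, against 77.8, 193, 102 and 72.0 CPM in controls, where control 2 was the highest of all libraries. It was picked out after its values were seen.

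Of the 3 Mrps18 genes, homologs of one bacterial S18, 2 rose. Mrps18a (chr17:46110986-46128910) had 101, 115, 120, 113 and 114 CPM in mutants, against 67.1, 74.3, 80.5 and 61.4 CPM in controls, with no overlap (log2 fold change 0.67, SE 0.13, adjusted p = 0.00525). Mrps18b (chr17:35910379-35916389) had 87.5, 102, 103, 79.4 and 86.2 CPM in mutants, against 49.2, 77.4, 56.9 and 39.9 CPM in controls. Control 2 came near the lowest mutant without overlap (log2 fold change 0.72, SE 0.19, adjusted p = 0.0213), the call was lost without mutant 3 or control 1, and 59.1% of its exon bases overlap Gm16279 on the opposite strand. Mrps18c (chr5:100798627-100804471) had 43.2, 64.0, 70.2, 57.3 and 52.2 CPM in mutants, against 36.0, 124, 43.9 and 34.8 CPM in controls. Control 2 exceeded every mutant, and control 3 lay just above mutant 1 (log2 fold change -0.05, SE 0.37, adjusted p = 0.924), and without it the value was 0.50 (adjusted p = 0.0636). Differences between the 3 genes' changes were not tested.

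Levels can be compared between genes per kilobase of transcript. On that scale the highest members by mean over both groups were Mrpl42, Mrpl20 and, tied at 109 CPM per kilobase, Mrpl30 and Mrpl54 in the large subunit and Mrps33, Mrps21 and Mrps18a among Mrps symbols. Mrps18a averaged 150 CPM per kilobase in mutants and 94.2 in controls, and Mrpl20 147 in mutants and 111 in controls. Mrpl54 averaged 124 in mutants and 90.2 in controls. At the other end, Mrps35 averaged 5.35 in mutants and 3.20 in controls. These values rest on 1 length a gene, the median over its annotated coding transcripts, whichever of them the islets express.

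Mrpl42 and Mrps33, both specific to the mitochondrial ribosome, had the highest levels per kilobase over all 9 libraries together. Among mutants alone Mrps18a, Mrpl20 and Mrps21, at 150, 147 and 145 CPM per kilobase, lay above Mrpl42 and Mrps33, at 135 and 128, and control 2 was high for both. Mrpl42 (chr10:95480805-95501940) had 73.9, 98.9, 122, 86.6 and 66.2 CPM in mutants, against 59.5, 335, 82.3 and 54.0 CPM in controls. The log2 fold change was -0.57 (SE 0.51, adjusted p = 0.408) with control 2 and 0.37 (adjusted p = 0.237) without it. Mrps33 (chr6:39801804-39810988) had 88.2, 76.0, 101, 98.6 and 94.3 CPM in mutants, against 99.1, 305, 110 and 87.8 CPM in controls. Its groups overlapped, and the value was -0.72 (SE 0.35, adjusted p = 0.130) with control 2 and -0.20 (adjusted p = 0.247) without it.

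Mrpl27, whose promoter is shown above, had 48.7, 48.4, 62.0, 55.2 and 47.6 CPM in mutants, against 33.9, 118, 45.7 and 43.3 CPM in controls (chr11:94653767-94660089, log2 fold change -0.20, SE 0.33, adjusted p = 0.656). Outside control 2, every control lay below every mutant. Mrps21 (chr3:95862634-95871519) had 55.0, 66.3, 68.6, 66.7 and 66.0 CPM in mutants, against 44.4, 95.7, 62.1 and 49.5 CPM in controls, and did not pass (log2 fold change 0.04, SE 0.22, adjusted p = 0.910). Mrpl20 (chr4:155802878-155809975) had 63.6, 76.6, 80.2, 76.2 and 66.4 CPM in mutants, against 45.4, 67.8, 60.3 and 46.0 CPM in controls, where control 2 overlapped the mutants (log2 fold change 0.40, SE 0.16, adjusted p = 0.0744). Mrpl27 was picked out after its values were seen.

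Mrpl30 (chr1:37890477-37898535) had 61.3, 121, 116, 82.7 and 64.9 CPM in mutants, against 36.8, 71.7, 52.3 and 39.6 CPM in controls. Mutants 2 and 3 lay far above the rest and mutants 1 and 5 below control 2 (log2 fold change 0.83, SE 0.28, adjusted p = 0.0437). Its call was lost when any of mutants 2, 3 and 4 or controls 1, 3 and 4 was left out. Mrps36, which is not a ribosomal protein by structure, had 26.4, 21.3, 19.1, 24.0 and 22.7 CPM in mutants, against 22.8, 38.5, 23.9 and 21.3 CPM in controls, with overlapping groups (log2 fold change -0.23, SE 0.20, adjusted p = 0.383).

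Of the 37 members that rose, 20 kept the call in each of the 9 fits without 1 library, 11 Mrpl genes (Mrpl12, Mrpl15, Mrpl16, Mrpl19, Mrpl28, Mrpl35, Mrpl37, Mrpl38, Mrpl43, Mrpl51 and Mrpl52) and 9 Mrps genes (Mrps2, Mrps7, Mrps9, Mrps15, Mrps17, Mrps18a, Mrps24, Mrps30 and Mrps34). Their lowest log2 fold change in any such fit was 0.56. By contrast, 7 of the 37 had overlapping groups. How many of all genes kept a call in each left-out fit was not counted, so the 20 have no background beside them. Without control 2, 8 further members passed upward (Mrpl11, Mrpl13, Mrpl17, Mrpl21, Mrpl40, Mrpl47, Mrps10 and Mrps28) and 6 no longer did (Mrpl34, Mrpl54, Mrps5, Mrps6, Mrps23 and Mrps27).

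Other properties divided the members as follows, described without a test. The background was 20.6% of all genes higher. Of the 46 members with a bacterial homolog, 20 rose (43.5%, median log2 fold change 0.52), and of the 29 specific to mitochondria, 17 rose (58.6%, median 0.59). These classes follow the structural names. By them Mrps18a (mL66) and Mrps18b (mS40), which both rose, count as specific, although they are described above as homologs of bacterial S18. By transcript length, 11 of the 26 shortest, 14 of the 25 middle and 12 of the 25 longest members rose. At least 1 of the 3 promoter motifs was present for 21 of 31 members that rose and had a window (67.7%) and for 17 of 35 that did not pass (48.6%). A divergent neighbour within 500 bases was annotated for 9 of the 37 that rose and 6 of the 38 that did not pass. How often motifs and divergent neighbours occur among all genes that rose or did not pass was not counted. These splits are therefore not results about the members.

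As a sum, the members took 0.406%, 0.409%, 0.413%, 0.376% and 0.439% of all counts in mutants 1 to 5, against 0.335%, 0.422%, 0.393% and 0.350% in controls 1 to 4. Each share has a 95% Wilson interval of at most 0.00483 percentage points to either side, which covers counting error only, since the reads carry no molecular identifiers. The groups overlapped, at 0.409% ± 0.0224 in mutants and 0.375% ± 0.0398 in controls (SD, n = 5 and 4). After TMM scaling the sum was 4550 ± 510 CPM in mutants and 3360 ± 821 CPM in controls, a ratio of 1.35, still overlapping through control 2 at 4510 CPM, and without control 2 the ratio was 1.53. No p is given for sums over members.

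The balance of the subunits differed little. Summed Mrpl counts over summed Mrps counts were 1.68, 1.76, 1.76, 1.72 and 1.73 in mutants, against 1.62, 1.60, 1.66 and 1.72 in controls. Mutant 1 lay below control 4, so the groups overlapped (1.73 ± 0.0332 in mutants and 1.65 ± 0.0529 in controls, a log2 difference of 0.07). With Mrps30 and Mrps18a counted as large and Mrps36 left out, the log2 difference was 0.12. The groups were then only just apart, at a log2 ratio of 1.0468 in mutant 4 and 1.0416 in control 4. With the mean log2 CPM of each subunit in place of sums, the log2 difference was 0.02 with overlap. Without control 2 these log2 differences were 0.06, 0.08 and 0.04, in the order given. Each ratio is within a library and does not depend on scaling.

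Set beside the nuclear-encoded respiratory chain subunits, the members were higher in every mutant. Per 100 counts of 76 respiratory chain genes, members had 40.1, 39.4, 39.3, 40.7 and 40.2 counts in mutants, against 31.8, 33.8, 33.8 and 33.0 in controls. The ranges were narrow and apart, control 2 included (39.9 ± 0.586 in mutants and 33.1 ± 0.945 in controls, SD, n = 5 and 4), and this ratio too does not depend on scaling. Gene by gene, 37 of the 76 mitochondrial ribosomal protein genes rose and 1 fell, with a median log2 fold change of 0.52, against 14, 1 and 0.13 for the 76 respiratory chain genes, whose 18.4% higher is near the background of 20.6%.

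The proteins of the cytosolic ribosome, which translates nuclear messages, stood on the other side. Per 100 of their counts, members had 19.1, 13.3, 14.3, 17.4 and 15.9 counts in mutants, against 20.7, 27.9, 18.5 and 19.2 in controls. Mutant 1 lay above control 3, so the groups overlapped (16.0 ± 2.33 in mutants and 21.6 ± 4.32 in controls). Of 80 cytosolic ribosomal protein genes tested, 75 rose, with a median log2 fold change of 0.88.

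**Figure D5:**
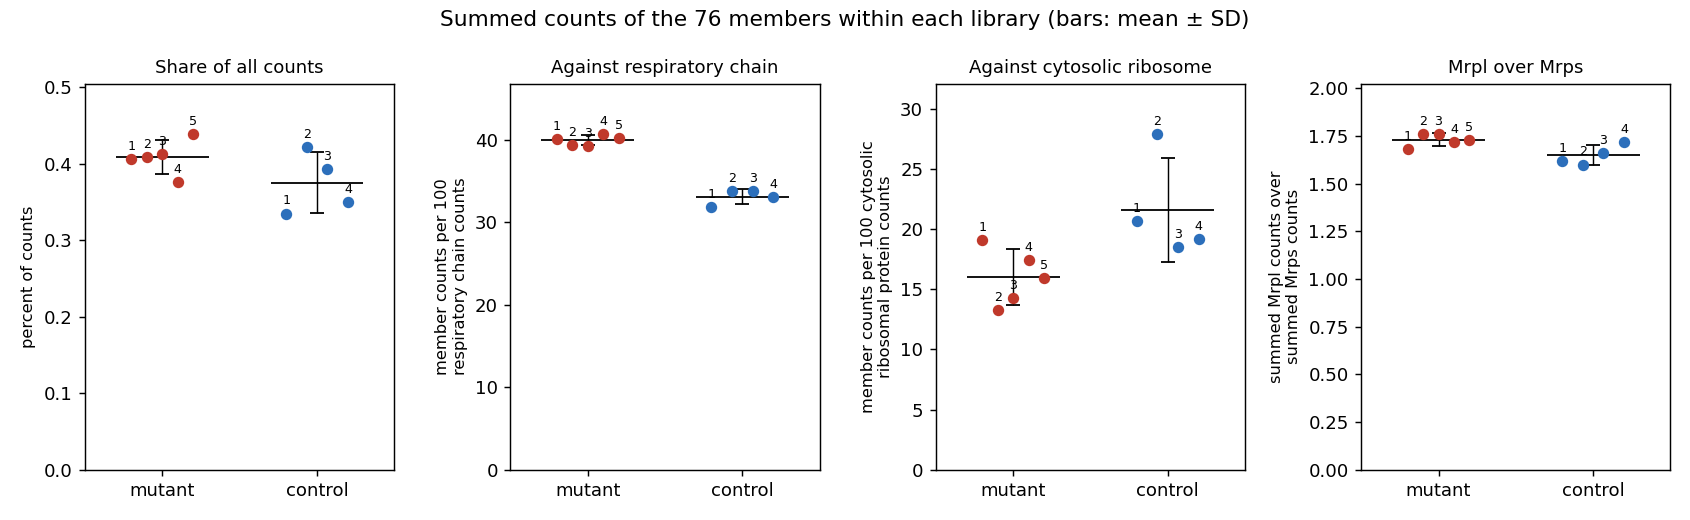
Summed counts of the 76 genes in each library as a percent of all counts, per 100 respiratory chain counts, per 100 cytosolic ribosomal protein counts, and as Mrpl over Mrps, with mean and SD per group and points numbered by replicate. Only the ratio to the respiratory chain separates all mutants (39.3 to 40.7) from all controls (31.8 to 33.8).

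The rest of mitochondrial translation was read from lists of genes outside the Mrpl and Mrps symbols. The shares that rose were 16.7% of other mitoribosome proteins, 25.0% of translation factors, 26.9% of assembly genes, 29.4% of transfer RNA synthetases and 15.4% of biogenesis regulators, near the background of 20.6%, so the counts of these lists are not results about them. Of 6 mitoribosome proteins under other symbols, 1 rose. Gadd45gip1 (mL64), which sits in the large subunit, had 103, 152, 141, 113 and 108 CPM in mutants, against 71.8, 69.1, 76.8 and 72.5 CPM in controls, with no overlap (log2 fold change 0.77, SE 0.15, adjusted p = 0.00623). Dap3 (mS29), the GTP-binding protein of the small subunit, averaged 49.2 ± 6.08 CPM in mutants and 50.8 ± 1.62 CPM in controls (log2 fold change -0.05, adjusted p = 0.792). Chchd1, Aurkaip1, Ptcd3 and Ict1 had log2 fold changes of 0.29, 0.51, 0.21 and 0.44 and did not pass, and without control 2 the count that rose was 3 of 6. Mrp63 (mL63), added after its value was seen, had 0.02.

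Among 16 tested factors of mitochondrial translation and insertion, 4 rose. Tufm, the mitochondrial elongation factor that brings transfer RNAs to the ribosome, averaged 46.6 ± 3.63 CPM in mutants and 25.4 ± 6.68 CPM in controls (log2 fold change 0.88, adjusted p = 0.0100). Oxa1l, the insertase that receives new proteins at the inner membrane, averaged 46.2 ± 8.22 CPM in mutants and 23.9 ± 5.40 CPM in controls (0.95, adjusted p = 0.00810). Taco1, a translational activator for cytochrome c oxidase subunit 1, changed by 0.96 (adjusted p = 0.0184) and Gfm1, the translocation factor, by 0.46 (adjusted p = 0.0490, overlapping groups). Without control 2 the value for Gfm1 was 0.29 and the call was lost (adjusted p = 0.164).

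Of 26 ribosome assembly genes, 7 rose and 1 fell. Mpv17l2, an inner membrane protein needed for assembly, had 35.1, 47.3, 54.2, 43.2 and 34.4 CPM in mutants, against 13.5, 13.8, 16.4 and 16.3 CPM in controls (log2 fold change 1.51, SE 0.17, adjusted p = 0.00147), a larger estimate than the 1.40 of Mrpl37; the difference was not tested. Rbfa, which matures the small subunit RNA, changed by 1.01 and Ddx28, a helicase of large subunit assembly, by 0.85, while Ngrn, a factor for the large subunit RNA, fell by 0.80 on the log2 scale (adjusted p = 0.0218).

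Of 17 mitochondrial transfer RNA synthetases, 5 rose and 1 fell, and without control 2 the count that rose was 3. Mars2, for methionine, changed by 1.31 from low levels, at 9.90 ± 3.28 CPM in mutants and 3.97 ± 1.56 CPM in controls (adjusted p = 0.0175 with all libraries and 0.0541 without control 2), and Fars2 and Tars2 by 0.90 and 0.85. Nars2, for asparagine, had 22.0, 23.5, 22.0, 18.7 and 19.4 CPM in mutants, against 35.1, 38.2, 36.8 and 37.3 CPM in controls, apart and downward (log2 fold change -0.80, SE 0.12, adjusted p = 0.00253).

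Of 13 tested regulators of mitochondrial biogenesis, 2 rose. Myc had 91.5, 272, 244, 106 and 143 CPM in mutants, against 35.4, 60.6, 54.2 and 60.1 CPM in controls (log2 fold change 1.70, SE 0.36, adjusted p = 0.00796), with mutants 2 and 3 highest. Tfb2m, a mitochondrial transcription factor, averaged 55.3 ± 7.81 CPM in mutants and 26.9 ± 5.07 CPM in controls (1.04, adjusted p = 0.00358). Nrf1, Gabpa and Yy1, whose motifs were searched above, had log2 fold changes of 0.43, 0.26 and -0.09 and did not pass (adjusted p = 0.0944, 0.175 and 0.827).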

How the data were processed

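Islet RNA was measured in 5 mutant and 4 control libraries, grouped by genotype labels and titles. The authors deposited whole-number counts per gene symbol, per the file headers raw and not normalized. The submitters' processing notes list, for the whole project and without roles, STAR, RSEM and DESeq2 among other tools, R 4.1.0 and mm10. Which of them made these counts, and whether strand was used, is unknown here.

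Mutants were tested against controls with the quasi-likelihood test of edgeR 4.0.16 (R 4.3.3) on all 12402 genes left by filterByExpr, with TMM scaling, two-sided, Benjamini-Hochberg over all genes and a threshold of 0.05. SE is the log2 fold change over the square root of F. The fit was tested on simulated data. Alternatives included DESeq2 1.42.0 and voom in limma 3.58.1. No 2 libraries agreed within sampling noise. Motifs were counted in RefSeq promoter windows.

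The members and gene lists were chosen with earlier results of these data known. Named genes were those with the largest passing changes per subunit (up to 6 a direction), the 3 most abundant per kilobase, those with disputed subunit or overlap, and list genes past the threshold; others are said to be picked later. Some of the list genes this gives are not reported here.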

Additional observations from a re-analysis of the deposited data

Results flagged for a closer look

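Among 62 groups of values, 6 held a library far from the others of its group by Dixon's test. Chance gives about 1 in 20. Some of these genes, Mrpl27 among them, were picked after their values were seen, so that rate is no measure for the 62 groups. In controls, control 2 was the distant library for Mrpl27 at 118 CPM, Mrpl42 at 335 CPM, Mrps18c at 124 CPM, Mrps33 at 305 CPM and Mrps36 at 38.5 CPM. In mutants, mutant 1 was lowest for Mrps21 at 55.0 CPM. Over all 76 members, where no gene was picked, 6 of the 76 control groups held such a library, control 2 each time. Of the 76 mutant groups, 4 did. Both counts are near the rate of about 1 in 20.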

How the results depend on the processing

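Against 37 members higher and 1 lower, edgeR gave 28 and 1 with no filter on low counts (12% and 9.16% of all genes), 37 and 1 with a stricter filter (20.3% and 11.5%), 32 and 1 with RLE scaling, and 37 and 1 with hormone and acinar genes left out of scaling. DESeq2 gave 35 and 1, and limma-voom 55 and 1 (35 Mrpl genes, against 21). Library totals gave 11 and 3 (8 Mrpl and 3 Mrps genes higher), with medians of 0.18 for all, 0.16 for Mrpl and 0.31 for Mrps genes. The acinar covariate gave 0 and 0 in each subunit, with medians of -0.38, -0.42 and -0.32. The endocrine covariate gave 4 and 0 (2 in each subunit), a share higher near the 3.77% of all genes, with medians of 0.30 for all and 0.36 for Mrps genes. Leaving out mutants 2 and 3 gave 15 and 0 (10 and 5), with a median of 0.39 for Mrps genes. The cause of each move was not tested. The log2 difference of the subunit ratio, 0.069, was 0.0199 from mean log2 CPM and 0.12 with the structural assignment.

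Leaving out each library in turn gave 22 to 39 members higher and 0 to 1 lower, where 12.9% to 22.2% of all genes were higher and 5.53% to 15.3% lower, with 13 to 25 Mrpl and 9 to 16 Mrps genes higher and medians of 0.40 to 0.57 (Mrpl 0.37 to 0.54, Mrps 0.50 to 0.67). The count moved over 1.5 times without mutant 3 (22, against 12.9% of all genes) and without control 1 (23, against 13.3%), and for Mrps genes also without mutant 2 (10). Under the acinar covariate, 6 named members that had passed the test changed sign: Mrpl15 (-0.21), Mrpl30 (-1.66), Mrps15 (-0.15), Mrps24 (-1.62), Mrps30 (-0.26) and Mrps6 (-0.0216). Of the other comparisons of the 24 named members with 11 alternatives, 216 kept the side of the threshold, 40 lost the call and 2 gained it. Among the 216 were 21 sign changes of members that did not pass, 4 of them under the acinar covariate (Mrpl20, Mrps14, Mrps21 and Mrps36), and leaving out single libraries gave 14 more.

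Whether the replicate numbers pair the libraries is not known here. The correlations of same-numbered libraries were 0.05, -0.02, 0.18 and -0.05, and 1 of 4 libraries matched its own number best, too few pairs to decide. With the replicate block, 31 members were higher and 0 lower by edgeR (1 lower at an unadjusted p under 0.05), against 13.4% and 6.24% of all genes. Members had a median of 343 counts per library; what depth adds to the spread of single genes was not tested.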
